A study of Mus musculus with 12 samples.

Results

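Transcript levels of 35 genes of mitosis and cytokinesis were followed in whole mouse blastocysts, out of 34245 genes in the deposited table. The members were taken by symbol from a list of mitotic cyclins and kinases, spindle checkpoint and anaphase-promoting complex factors, kinetochore proteins, the chromosomal passenger complex, spindle motors, and cytokinesis factors, and each symbol matched 1 row. Embryos of superovulated F1 hybrid (C57Bl6 x CBA/W) mice mated to F1 males were grown in vitro from the 2-cell stage in KSOM with amino acids, and at E3.5 (3.5 days after mating) they were moved to 20 µM SB220025, an inhibitor of p38 mitogen-activated protein kinases (p38-MAPKi), or to its solvent DMSO (control). Pools of 30 embryos were collected 4, 7, or 10 h later (called 4 h, 7 h, and 10 h below), which gave 6 groups of 2 libraries of poly(A) RNA. The study describes the 2 pools of a group as biological duplicates, so the p-values rest on the spread between separate pools, moderated over all genes. In the p38-MAPKi comparison at 4 h and the control comparison of 4 h with 7 h, the gene's own spread had no weight. There each gene was given the variance of a trend fitted over all genes.

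In a dividing cell, the kinase Cdk1 and its cyclins start mitosis, kinetochores tie each chromosome to the spindle, and a checkpoint holds back the anaphase-promoting complex (APC/C) until every kinetochore is attached. The APC/C then marks cyclins for destruction, the chromosomes part, and a central spindle and a contractile ring cut the cell apart in cytokinesis. Most of these genes are transcribed in late S phase, G2, and mitosis and are switched off in resting cells, so their mRNA in a mixed tissue is often read as a sign of proliferation. Blastocyst cells of the trophectoderm and of the inner cell mass both divide at this stage. Since each library mixes both, fewer dividing cells and less mRNA in each dividing cell cannot be told apart in any of the values below.

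The depth, recovered from the deposited values, lay between 11242313 and 24457312 reads, and the p38-MAPKi library of 7 h replicate 1 was the shallowest and showed reads for 14049 genes against at least 16385 in every other library. Markers of the labelled tissue were present: 9 of 10 trophectoderm, 10 of 10 epiblast, and 8 of 10 primitive endoderm (PrE) markers reached 1 RPKM (reads per kilobase of exon, scaled to the library total) in every library, whereas 0 of 10 cumulus or granulosa cell markers and 1 to 4 of 10 oocyte markers did so. Every member was covered well, with 93 to 10876 reads per library, and all 35 passed the filter of at least 1 RPKM in 2 libraries in every comparison.

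Many genes of the G2 and mitosis program carry a CCAAT box, the site of the factor NF-Y, and a cell cycle genes homology region (CHR), a site of the MuvB complexes that act with B-MYB and FOXM1. Both were searched in the 250 bases before each RefSeq transcription start (GRCm38.p6) on both strands, with CCAAT for the first and TTTGAA or TTCGAA for the second. Matches could share letters, TTCGAA reads alike on either strand and was counted once, and 29 of the 35 members had a start in the table. CCAAT was found before 23 of the 29 members (79.3%), against 37.5% of all 27025 genes with a start, and at least 2 copies before 15 members (51.7%) against 11.5%. The CHR letters were found before 12 members (41.4%) against 19.6%, both motifs before 11 (37.9%) against 7.93%, and neither before 5 (17.2%) against 50.9%. The stretches below are from members with some of the largest differences after p38-MAPKi, on the strand of the gene from 5′ to 3′ and without annotated exons, with CCAAT and CHR letters of either strand in capitals, to show that both kinds of upstream sequence occur among them.
*Top2a*, chr11:99024190-99024439: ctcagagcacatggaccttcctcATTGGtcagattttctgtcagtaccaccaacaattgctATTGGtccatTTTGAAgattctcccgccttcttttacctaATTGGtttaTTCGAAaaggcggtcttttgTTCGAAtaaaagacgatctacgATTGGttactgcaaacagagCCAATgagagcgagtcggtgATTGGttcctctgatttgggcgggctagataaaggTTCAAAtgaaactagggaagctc
*Cenpf*, chr1:189688087-189688336: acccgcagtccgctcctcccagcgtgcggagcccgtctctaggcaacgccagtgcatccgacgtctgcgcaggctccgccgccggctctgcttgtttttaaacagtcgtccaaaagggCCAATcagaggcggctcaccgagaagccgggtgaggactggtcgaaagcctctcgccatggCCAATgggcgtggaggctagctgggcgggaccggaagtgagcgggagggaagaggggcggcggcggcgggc
*Anln*, chr9:22389207-22389456: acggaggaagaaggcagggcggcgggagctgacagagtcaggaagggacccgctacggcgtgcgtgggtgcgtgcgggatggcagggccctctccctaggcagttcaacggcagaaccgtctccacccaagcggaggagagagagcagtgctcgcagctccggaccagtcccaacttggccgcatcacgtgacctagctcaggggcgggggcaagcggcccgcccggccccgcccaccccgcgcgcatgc
*Birc5*, chr11:117848987-117849236: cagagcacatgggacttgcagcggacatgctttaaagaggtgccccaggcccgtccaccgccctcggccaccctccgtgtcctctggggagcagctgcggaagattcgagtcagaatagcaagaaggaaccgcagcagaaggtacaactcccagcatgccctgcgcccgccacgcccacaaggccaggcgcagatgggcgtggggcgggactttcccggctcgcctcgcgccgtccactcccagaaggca
*Cdk1*, chr10:69352939-69353162: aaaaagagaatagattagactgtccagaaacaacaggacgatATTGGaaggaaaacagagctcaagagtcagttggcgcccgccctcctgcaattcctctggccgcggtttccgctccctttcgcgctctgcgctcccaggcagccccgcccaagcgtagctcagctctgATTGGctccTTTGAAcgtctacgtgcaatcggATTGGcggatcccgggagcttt
*Ube2c*, chr2:164769679-164769897: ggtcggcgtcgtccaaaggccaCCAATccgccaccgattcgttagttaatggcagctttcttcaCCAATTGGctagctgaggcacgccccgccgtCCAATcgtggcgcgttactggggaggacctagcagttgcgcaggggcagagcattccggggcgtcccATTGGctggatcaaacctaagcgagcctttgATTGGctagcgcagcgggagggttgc

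*Birc5* lies on the plus strand with *Ube2c*, and the other 4 lie on the minus strand. The *Top2a* stretch held 6 CCAAT and 4 CHR matches and that of *Cenpf* 2 CCAAT matches and 0 CHR matches. *Cdk1* showed 3 and 1 in 224 bases. *Ube2c* showed 6 CCAAT matches in 219 bases, of which a neighboring pair on opposite strands shared letters. The windows of *Anln* and *Birc5* held 0 matches of either kind. *Anln* is the member that limma called as lower at 7 h, and *Birc5* had the highest log2 fold change there. Across the 29 members, the median log2 fold change at 7 h was −0.39 for the 23 with CCAAT and −0.35 for the 6 without, and −0.48 for the 12 with CHR letters against −0.37 for the 17 without. These are descriptions of letters, and binding was not measured.

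Levels in the 6 control libraries spanned a wide range per length of transcript. *Cdc20*, the activator of the APC/C, was highest with 208.9 ± 20.1 RPKM (mean ± SD, n = 6 libraries over the 3 time points), followed by the kinase gene *Aurka* with 119 ± 5.11 and the cyclin gene *Ccnb2* with 94.2 ± 7.51. The lowest were *Cenpf* with 6.39 ± 0.931, *Nuf2* with 3.78 ± 0.245, and the phosphatase gene *Cdc25b* with 3.66 ± 0.658 RPKM. In this order, 27 of 34 neighboring pairs overlapped in their control libraries, so most ranks are not resolved, and *Cdc20*, *Aurka*, and *Ccnb2* were among those that did not overlap with the next. Members varied little among control libraries, with coefficients of variation from 3.37% (*Ect2*) to 18% (*Cdc25b*) and a median of 8.33%. Over all 12 libraries, the highest value exceeded the lowest by 1.18-fold for *Bub3* and by up to 2.95-fold for *Top2a*. The lowest value of 27 of the 35 members came from a p38-MAPKi library of 7 h, for 25 of them from replicate 1.

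**Figure D1:**
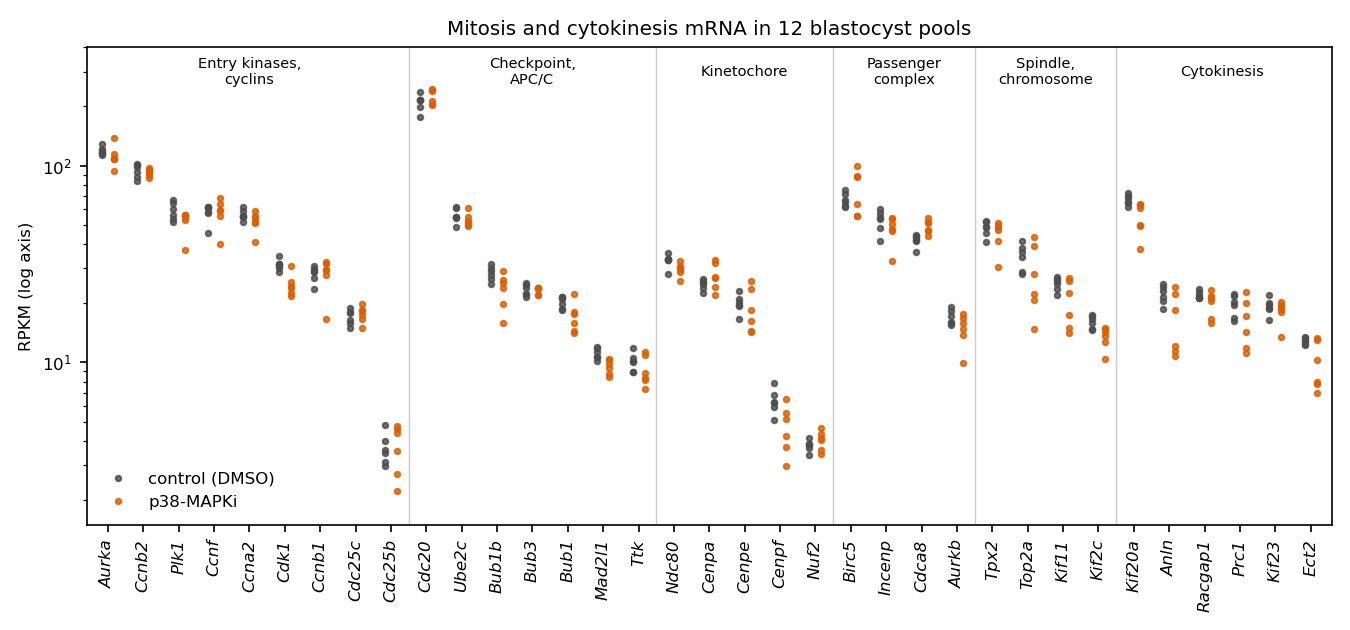
RPKM on a log axis (vertical) of the 35 members (horizontal, grouped by role and ordered by control level), with 1 point per library, 6 control libraries in gray and 6 p38-MAPKi libraries in orange. Levels run from 208.9 RPKM for Cdc20 to 3.66 RPKM for Cdc25b in the control mean, and the lowest orange points of Top2a, Cenpf, Anln, and Ect2 stand clear of the gray points.

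The first question was whether p38-MAPKi changed these transcripts at each time point. At 7 h most members were lower: 29 of 35 had a log2 fold change below 0 (59.9% of all genes tested did), the libraries of 22 members lay apart with both p38-MAPKi pools lower (62.9% of the members against 38.7% of all genes), and only *Birc5* and *Cdca8* lay apart in the other direction (23% of all genes). Of the 35, 1 was called at an adjusted p under 0.05 (limma, Benjamini-Hochberg over 10940 genes), namely *Anln*, which fell. Over all genes 2.13% were called. By voom on the recovered reads, 8 members were called, all lower: *Bub1b*, *Cenpf*, *Kif11*, *Top2a*, *Kif20a*, *Prc1*, *Ect2*, and *Anln*. Voom called 1728 of 10927 genes there. At an unadjusted p under 0.05, 12 members were lower (17.7% of all genes) and *Birc5* was higher (10.7% of all genes). The median log2 fold change of the members was −0.39 and that of all genes tested −0.14, and a log2 fold change of −0.5 or lower was found in 8 of the 35 (22.9%) and in 24.7% of all genes.

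This time point rests on few libraries that differ among themselves. Without p38-MAPKi replicate 1, the shallowest library, the median of the members was −0.23 against −0.06 for all genes. Without p38-MAPKi replicate 2 it was −0.52 against −0.20. It was −0.45 against −0.13 without control replicate 1 and −0.31 against −0.14 without control replicate 2. In each of these fits 1 group held a single library, which was assumed to vary like the pair of the other group. Calls from such fits do not measure the spread of the reduced group. Centering each library on its median moved the median of all genes from −0.14 to 0.05 and that of the members from −0.39 to −0.19, so that 26 rather than 29 members stayed below 0 and none was called. The summed level of the 10 PrE markers also differed here, with 162.7 and 173.1 RPKM after p38-MAPKi against 271.7 and 306.5 in the control, and that of the 10 epiblast markers was 1658 and 1905 against 1316 and 1552, whereas the trophectoderm sums overlapped (2108 and 2244 against 1864 and 2452). Single markers differed from these sums: 8 of 10 epiblast markers were below 0 (median −0.27), 7 of 9 trophectoderm markers tested (median −0.22), and 8 of 8 PrE markers tested (median −0.46), against 59.9% of all genes. Of the PrE markers, limma called *Lrp2* (adjusted p = 0.0369) and *Dab2* (adjusted p = 0.0461) as lower at 7 h. *Lrp2* stood at 27.6 and 32.5 RPKM with p38-MAPKi against 74.7 and 90.96, and *Dab2* at 23.96 and 28.3 against 57.5 and 47.3. No gene at all was called with median centering or with the length trend removed. All genes over 6 kb had a median log2 fold change of −0.45, and the part of length in the PrE sum was not tested. The trophectoderm gene *Cdx2* stood at 157.9 and 144.2 RPKM with p38-MAPKi against 236.5 and 190.4, and *Gata3* at 67.2 and 57.2 against 109.8 and 90.1. Oocyte marker sums were 39.2 and 28.5 RPKM against 28.4 and 15.9 at this time. The part of cell composition in the values of the members was not tested.

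At the earliest and the latest time the medians of the members lay nearer to 0. At 4 h, 0 of 35 were called by limma and 0 by voom on the recovered reads (0.909% of 10781 genes were called by limma), and 2, *Ect2* and *Anln*, were lower at an unadjusted p under 0.05 (9.42% of all genes in either direction). The libraries of 8 members lay apart with p38-MAPKi lower (13.7% of all genes) and of 5 with p38-MAPKi higher (26.8%). The median log2 fold change of the members was 0.03 against 0.07 for all genes, and the former turned to −0.10 after quantile normalization and to −0.09 with the length trend removed. *Anln* was called here without p38-MAPKi replicate 1 (adjusted p = 0.0269, limma). The trophectoderm sums at 4 h were 1970 and 2001 RPKM with p38-MAPKi against 1782 and 1945, with 7 of 9 markers tested above 0. Below 0 were *Cdx2*, with 150.6 and 158.4 RPKM against 195.5 and 218.8, and *Gata3*, with 62.5 and 70.7 against 92.1 and 101. Of the epiblast markers 8 of 10 were below 0 (median −0.07), and of the PrE markers tested 6 of 8 (median −0.33), against 40% of all genes. The part of cell composition in the values of the members was not tested here either. At 10 h, 0 of 35 were called by limma (0.803% of 10959 genes) and 2, *Cdk1* and *Cenpe*, by voom (522 of 10946 genes). At an unadjusted p under 0.05 *Cdk1*, *Ube2c*, *Birc5*, and *Ccna2* were lower and *Cenpe* was higher (19.8% of all genes in either direction). Libraries lay apart for 13 members with p38-MAPKi lower (29.6% of all genes) and for *Cenpe* with p38-MAPKi higher (22.6%), and the median of the members was −0.06 against −0.02, with a turn to 0.02 after quantile normalization.

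**Figure D2:**
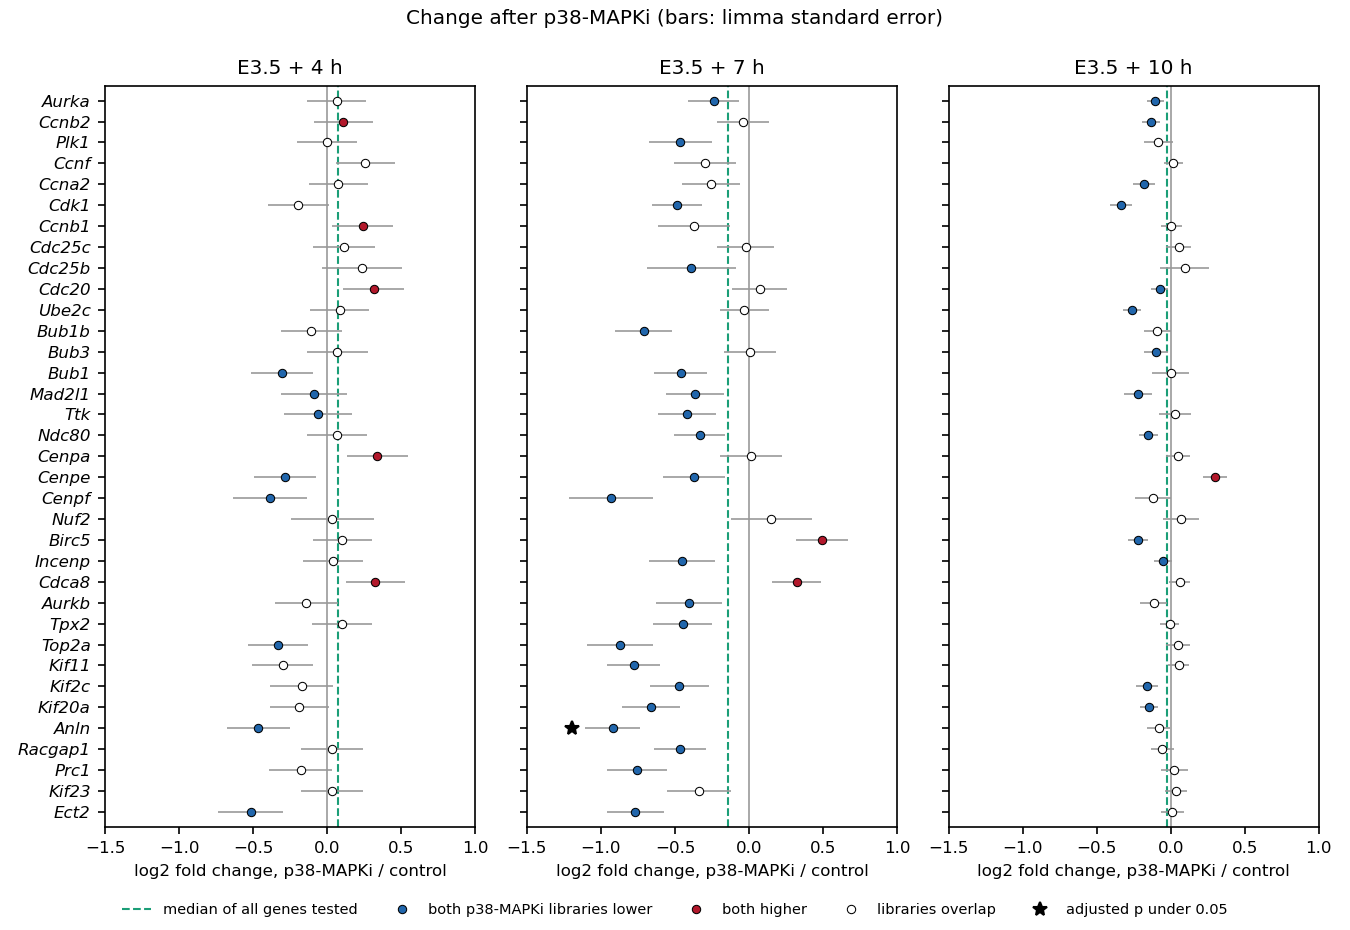
Log2 fold change of p38-MAPKi over control (horizontal, bars are limma standard errors) for the 35 members (vertical, grouped by role) at the 3 time points. Blue and red points are members whose 2 p38-MAPKi libraries both lie below or above both control libraries. Open points are members whose libraries overlap, and the dashed line is the median of all genes tested. At 7 h 22 points are blue and 2 are red, and the star marks Anln, the member called by limma.

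Of the 9 genes of mitotic entry, 0 were called by limma at any time point (voom called *Cdk1* at 10 h). All 9 had a negative log2 fold change at 7 h (59.9% of all genes did), with a median of −0.30. Centering on the median moved the log2 fold change above 0 for *Ccnb2* and *Cdc25c*. *Cdk1*, the kinase that drives entry, was lower in both p38-MAPKi pools at 7 h and 10 h. Values are given with replicate 1 before replicate 2, and from 7 h on as the control pair against the p38-MAPKi pair. *Cdk1* stood at 28.8 and 34.8 RPKM in the 4 h control and at 24.5 and 31.1 with p38-MAPKi. The pairs were 31.8 and 30.2 against 21.7 and 22.6 at 7 h and 30.8 and 31.6 against 23.8 and 25.7 at 10 h. The groups overlapped at the first time point and were apart at both later ones, and the 4 p38-MAPKi values at those times lay close together. Its log2 fold change was −0.49 ± 0.17 (SE) at 7 h (adjusted p = 0.109, limma) and −0.34 ± 0.073 at 10 h (adjusted p = 0.0903, limma). *Aurka* was measured at 114 and 128 RPKM in the 4 h control and at 114 and 139 with p38-MAPKi. The pairs were 119 and 121 against 94.1 and 109.7 at 7 h and 116 and 116 against 108 and 108 at 10 h. *Aurka* encodes the kinase that matures the spindle poles, and its libraries were apart at the 2 later times by small steps, −0.24 ± 0.17 and −0.10 ± 0.057. *Cdc25b* was found at 3.14 and 4.79 RPKM in the 4 h control and at 4.36 and 4.78 with p38-MAPKi. The pairs were 2.99 and 3.47 against 2.22 and 2.72 at 7 h and 3.58 and 4.01 against 4.6 and 3.55 at 10 h. This phosphatase gene, whose product activates Cdk1, had the lowest control level of the list and its libraries were apart only at 7 h, where the log2 fold change was −0.39 ± 0.30. The cyclin genes *Ccna2*, *Ccnb1*, *Ccnb2*, and *Ccnf*, the phosphatase gene *Cdc25c*, and the kinase gene *Plk1* had log2 fold changes that ranged from −0.46 to −0.02 at 7 h and from −0.18 to 0.05 at 10 h.

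The 7 genes of the spindle checkpoint and the APC/C were lower in part at 7 h. The libraries of the checkpoint genes *Bub1*, *Bub1b*, *Mad2l1*, and *Ttk* were apart and lower (38.7% of all genes). Those of *Bub3*, *Cdc20*, and *Ube2c* overlapped with log2 fold changes between −0.03 and 0.07. *Bub1b*, which codes for the checkpoint protein BubR1 and is singled out here after its values were seen, had the lowest log2 fold change of the group, −0.71 ± 0.19 (adjusted p = 0.0669, limma). *Ttk* stood at 8.97 and 8.91 RPKM in the 4 h control and at 8.79 and 8.31 with p38-MAPKi. The pairs were 10.2 and 10.5 against 7.36 and 8.13 at 7 h and 11.9 and 10.0 against 10.9 and 11.3 at 10 h. *Ttk*, the kinase that starts checkpoint signaling, was lower with p38-MAPKi at the 2 earlier times, narrowly at 4 h, and overlapped the control at the last. *Cdc20* was present at 175 and 215 RPKM in the 4 h control and at 239 and 243 with p38-MAPKi. The pairs were 199 and 235 against 212 and 243 at 7 h and 215 and 214 against 205 and 203 at 10 h. Both p38-MAPKi pools were above the control at 4 h (0.31 ± 0.21, adjusted p = 0.678, limma), and the first control pool of that time was the lowest of all 12. *Ube2c* was seen at 48.8 and 54.5 RPKM in the 4 h control and at 49.1 and 60.9 with p38-MAPKi. The pairs were 54.9 and 54.5 against 52.2 and 54.9 at 7 h and 61.5 and 60.5 against 50.0 and 51.8 at 10 h. *Ube2c* encodes the ubiquitin-conjugating enzyme of the APC/C, and its groups overlapped until 10 h, where p38-MAPKi was lower by a narrow spread (−0.26 ± 0.062, adjusted p = 0.0981, limma).

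Among the 5 kinetochore genes, the one with the longest transcript had the lowest log2 fold change of all members at 7 h. *Cenpf* stood at 6.29 and 5.96 RPKM in the 4 h control and at 5.16 and 4.25 with p38-MAPKi. The pairs were 5.1 and 7.89 against 2.97 and 3.71 at 7 h and 6.22 and 6.83 against 6.49 and 5.55 at 10 h. *Cenpf* encodes a large protein of the outer kinetochore, and its p38-MAPKi pools were below both controls at the 2 earlier times while the 2 control pools of 7 h were themselves far apart. The log2 fold change was −0.93 ± 0.28 (adjusted p = 0.0825, limma). *Cenpe* was measured at 19.7 and 20.2 RPKM in the 4 h control and at 18.6 and 14.5 with p38-MAPKi. The pairs were 16.7 and 23.2 against 14.3 and 16.2 at 7 h and 19.4 and 21 against 26 and 23.7 at 10 h. *Cenpe*, a kinesin gene whose product captures spindle microtubules, differed in direction between times, lower in both treated pools at 4 h and 7 h and higher in both at 10 h (0.30 ± 0.083, adjusted p = 0.128, limma). *Cenpa* was found at 22.4 and 24.9 RPKM in the 4 h control and at 27.1 and 33 with p38-MAPKi. The pairs were 25.9 and 26.6 against 22.1 and 31.9 at 7 h and 25.3 and 23.9 against 26.9 and 24.1 at 10 h. For this gene of the centromeric histone, the treated pools were above the control at 4 h (0.34 ± 0.20) and overlapped the control afterwards. *Ndc80* stood at 28.1 and 33.1 RPKM in the 4 h control and at 31 and 32.9 with p38-MAPKi. The pairs were 33 and 35.8 against 25.9 and 28.7 at 7 h and 33.5 and 33.4 against 29.9 and 30.3 at 10 h. *Ndc80*, part of the complex that binds microtubules, was lower in both treated pools at the 2 later times. *Nuf2* was detected at 3.69 and 3.83 RPKM in the 4 h control and at 4.14 and 3.58 with p38-MAPKi. The pairs were 3.82 and 3.37 against 4.64 and 3.42 at 7 h and 4.12 and 3.85 against 4.31 and 4.05 at 10 h. Its partner *Nuf2* overlapped the control at all times and its sign at 7 h, 0.15 ± 0.27, turned without p38-MAPKi replicate 1.

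The chromosomal passenger complex, which corrects faulty attachments and then moves to the midzone, held both members that were higher in both treated pools at 7 h. *Birc5* stood at 65.5 and 75.2 RPKM in the 4 h control and at 63.9 and 88.7 with p38-MAPKi. The pairs were 71.7 and 61.4 against 99.6 and 87.5 at 7 h and 67.1 and 62.3 against 55.7 and 55.2 at 10 h. *Birc5*, the gene of survivin, was above the control in both treated pools at 7 h and below it in both at 10 h. Its log2 fold change was 0.49 ± 0.18 (adjusted p = 0.115, limma) and then −0.22 ± 0.066 (adjusted p = 0.145, limma), and the difference between those times was −0.71 ± 0.17 (adjusted p = 0.0741, limma interaction). *Cdca8* was measured at 36.5 and 41.9 RPKM in the 4 h control and at 46.7 and 51.3 with p38-MAPKi. The pairs were 43.9 and 41.2 against 51.8 and 54.5 at 7 h and 44.5 and 42.8 against 44.1 and 46.9 at 10 h. *Cdca8*, the gene of borealin, was higher in both treated pools at the 2 earlier times, with log2 fold changes of 0.32 ± 0.20 and 0.32 ± 0.17, and overlapped at the last. *Aurkb* was found at 15.5 and 18.3 RPKM in the 4 h control and at 16.8 and 13.8 with p38-MAPKi. The pairs were 16.1 and 15.9 against 9.9 and 14.7 at 7 h and 17.2 and 19.1 against 15.9 and 17.6 at 10 h. The kinase gene *Aurkb* and the scaffold gene *Incenp* were lower in both treated pools at 7 h, with log2 fold changes of −0.41 ± 0.22 and −0.45 ± 0.22 and adjusted p = 0.262 and 0.219 (limma). None of the 4 was called by limma at any time point or for a difference between times, and voom called the difference of *Birc5*.

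The 4 genes of the spindle and chromosome structure were all lower in both treated pools at 7 h, as were 38.7% of all genes. Their median log2 fold change was −0.62, and all 4 were still below 0 after median centering. *Top2a* stood at 28.7 and 34.3 RPKM in the 4 h control and at 28 and 22.2 with p38-MAPKi. The pairs were 28.2 and 36.5 against 14.7 and 20.9 at 7 h and 38 and 41.5 against 43.4 and 38.8 at 10 h. *Top2a*, the topoisomerase that untangles sister chromatids, was below the control of its time in all 4 treated pools of the 2 earlier times and overlapped the control at 10 h, where levels were highest. Its log2 fold change was −0.87 ± 0.22 (adjusted p = 0.0614, limma). *Tpx2* was measured at 40.7 and 48.9 RPKM in the 4 h control and at 48.5 and 47 with p38-MAPKi. The pairs were 45.2 and 52 against 30.5 and 41.3 at 7 h and 49 and 51.7 against 49.2 and 51 at 10 h. *Tpx2*, a microtubule nucleation factor, overlapped at 4 h and 10 h and was lowest in the first treated pool of 7 h. *Kif2c* was found at 14.8 and 17.4 RPKM in the 4 h control and at 13.6 and 14.9 with p38-MAPKi. The pairs were 14.7 and 17.3 against 12.7 and 10.4 at 7 h and 15.9 and 16.6 against 14.7 and 14.3 at 10 h. Both treated pools of this depolymerizing kinesin were below all controls at 7 h. *Kif11*, the motor that pushes spindle poles apart, is named after its values were seen because it had the second lowest p of the list: −0.78 ± 0.18 at 7 h (adjusted p = 0.0532, limma), with 14.1 and 14.9 RPKM after p38-MAPKi against 23.5 and 26.4.

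Cytokinesis was the role with the lowest median at 7 h, −0.71 over 6 genes, all of them below 0 with and without median centering (59.9% of all genes without it). Their exon lengths ran from 3796 bases (*Kif20a*) to 9063 bases (*Anln*), against a median of 3901 for all genes tested. At this time all genes over 6 kb had a median log2 fold change of −0.45, and the part of length in the rank of this role was not tested. *Anln* stood at 18.7 and 21.5 RPKM in the 4 h control and at 18.4 and 11.4 with p38-MAPKi. The pairs were 20.5 and 22.9 against 12.2 and 10.8 at 7 h and 24.1 and 24.9 against 24.3 and 22.1 at 10 h. *Anln*, the gene of anillin (chr9:22332012-22389188, minus strand, GRCm38), a scaffold that joins actin, septins, and RhoA in the contractile ring, was reduced to about the same level in both treated pools of 7 h and was back among the control values at 10 h. The fall at 7 h was −0.92 ± 0.19 (adjusted p = 0.0476, limma), and it lost the call without the variance trend, after median centering or quantile normalization, after removal of the length trend with or without the replicate number as a block, and without either control library. *Ect2* was measured at 12.5 and 13.4 RPKM in the 4 h control and at 10.3 and 7.94 with p38-MAPKi. The pairs were 12.3 and 13 against 7.04 and 7.82 at 7 h and 13.2 and 12.8 against 12.9 and 13.3 at 10 h. *Ect2*, the exchange factor that activates RhoA at the equator, was below every control library in all 4 treated pools of the first 2 times and within the control values at the last. Its log2 fold changes were −0.52 ± 0.22, −0.77 ± 0.19, and 0.012 ± 0.079, with adjusted p of 0.365, 0.0597, and 0.95 (limma). *Kif20a* was found at 61.9 and 65.3 RPKM in the 4 h control and at 62.9 and 49.3 with p38-MAPKi. The pairs were 64.4 and 72.9 against 37.6 and 49.9 at 7 h and 69.9 and 68.2 against 64 and 60.8 at 10 h. This midzone kinesin gene was lower in both treated pools at the 2 later times, with log2 fold changes of −0.66 ± 0.19 and −0.15 ± 0.063. *Prc1*, which bundles midzone microtubules, and the centralspindlin pair *Kif23* and *Racgap1* had log2 fold changes of −0.76 ± 0.20, −0.34 ± 0.22, and −0.47 ± 0.17 at 7 h and between −0.06 and 0.04 at 10 h.

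**Figure D3:**
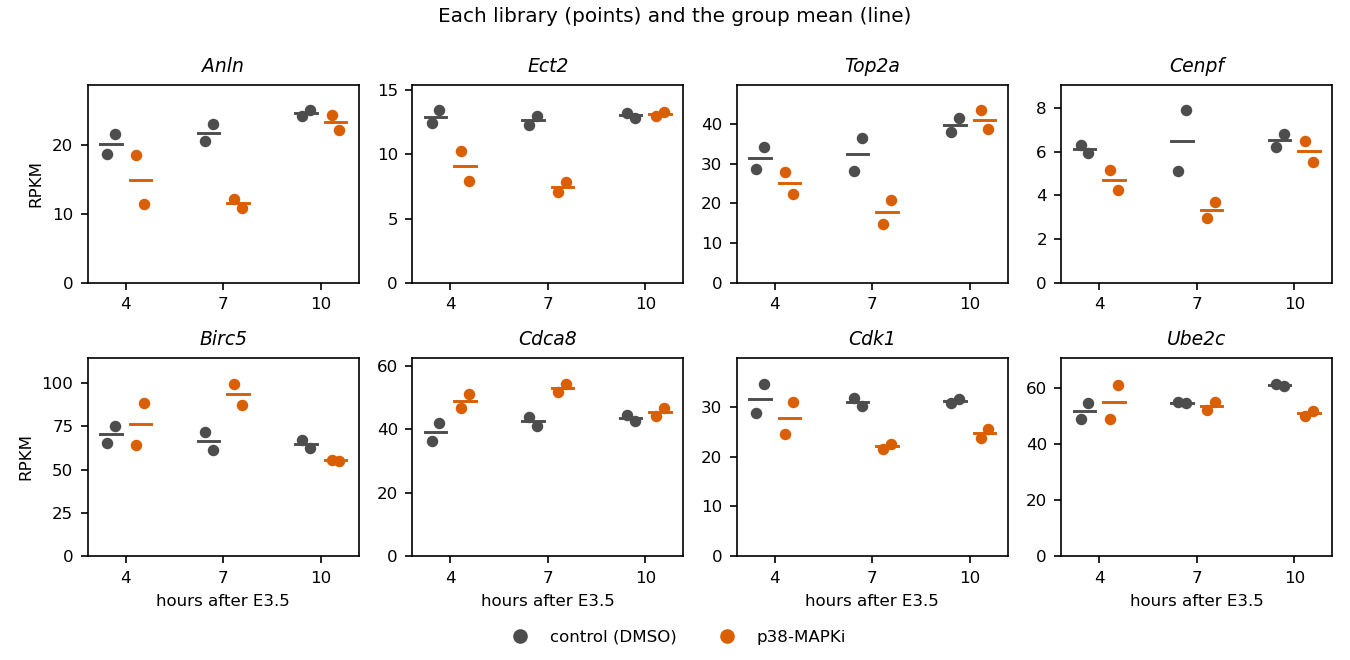
RPKM (vertical, from 0) of 8 members by hours after E3.5 (horizontal), each point 1 library of control (gray) or p38-MAPKi (orange), with a line at the mean of the 2 libraries. Anln, Ect2, Top2a, and Cenpf are lower in the treated pools at 4 and 7 h and near the control at 10 h, Birc5 and Cdca8 are higher at 7 h, and Cdk1 and Ube2c are lower at 10 h.

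The next question was whether the effect itself differed between time points. From 4 h to 7 h the effect moved downward for 33 of 35 members (70.3% of all genes), with a median difference of −0.33 against −0.22 for all genes. No member was called by limma or voom (0.00884% of 11311 genes were), and 1, *Bub1b*, had an unadjusted p under 0.05 (6.83% of all genes). From 7 h to 10 h it moved upward for 28 of 35 (59.7% of all genes), with a median of 0.37 against 0.15, which centering moved to 0.18 and −0.05 with 14 members then below 0. None was called by limma (0.00877% of 11400 genes) and 12 had an unadjusted p under 0.05 (26.3% of all genes). Voom called 6, *Anln*, *Ect2*, *Kif11*, *Prc1*, and *Top2a* upward and *Birc5* downward, among 890 of 11387 genes called. The difference was 0.84 ± 0.17 for *Anln* and 0.78 ± 0.17 for *Ect2* (adjusted p = 0.071 for both, limma interaction). Without p38-MAPKi replicate 1 of 7 h, the median difference of the members was 0.12 against 0.06 for all genes. Without p38-MAPKi replicate 2 of 7 h, it was 0.54 against 0.20. Both differences share the 7 h libraries.

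The effect common to the 3 time points, fitted over 12 libraries with time as a factor, was below 0 for 29 of 35 members (53.8% of all genes), with a median of −0.14 against −0.03. None was called by limma (2.67% of 11590 genes) and *Cdk1* was called by voom (404 of 11577 genes). At an unadjusted p under 0.05, 12 members were lower (13.9% of all genes) and *Cdca8* was higher (11.1%). *Cdk1* had the lowest p, with a log2 fold change of −0.34 ± 0.09 (adjusted p = 0.057, limma), and both treated pools were below both controls at 2 of 3 times. *Cdk1* was called without control replicate 1 or p38-MAPKi replicate 2 of 4 h and *Anln* without p38-MAPKi replicate 1 of that time. Without the 4 libraries of 7 h, the median of the members was −0.04 against 0.02 for all genes and none was called. In the same fit over 12 libraries, limma called the trophectoderm genes *Cdx2* (−0.38 ± 0.08, adjusted p = 0.0336) and *Gata3* (−0.51 ± 0.09, adjusted p = 0.0169) and the PrE gene *Lrp2* (−0.86 ± 0.17, adjusted p = 0.0237) as lower. Whether these marker calls stay under alternative settings of the fit was not followed. Of the markers tested, 8 of 8 of PrE, 8 of 10 of epiblast, and 4 of 9 of trophectoderm were below 0, and their part in the values of the members was not tested.

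The change after p38-MAPKi went with transcript length, and the members are not short: their exon lengths ran from 1531 to 15433 bases with a median of 4363, against 3901 for all genes tested at 7 h. Across the 35 members, Spearman's rho between length and log2 fold change was −0.52 at 4 h, −0.41 at 7 h, and 0.28 at 10 h, and across all genes −0.37, −0.46, and 0.06; these describe genes measured in the same libraries. At 7 h, the 10 members of 2 to 4 kb had a median of −0.36 against −0.03 for 3427 genes of that length, the 12 members of 4 to 6 kb −0.46 against −0.24, and the 10 members over 6 kb −0.42 against −0.45. The 3 members of 1 to 2 kb (*Ccnb2*, *Cdc20*, and *Cdc25c*) had a median of −0.02 against 0.27. The longest members, *Cenpf*, *Anln*, and *Top2a*, were the 3 with the lowest log2 fold changes. With the length trend of each library removed, the median of the members was −0.24 against 0.01 for all genes, *Anln* had a log2 fold change of −0.48 (adjusted p = 0.185, limma), and no member was called.

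**Figure D4:**
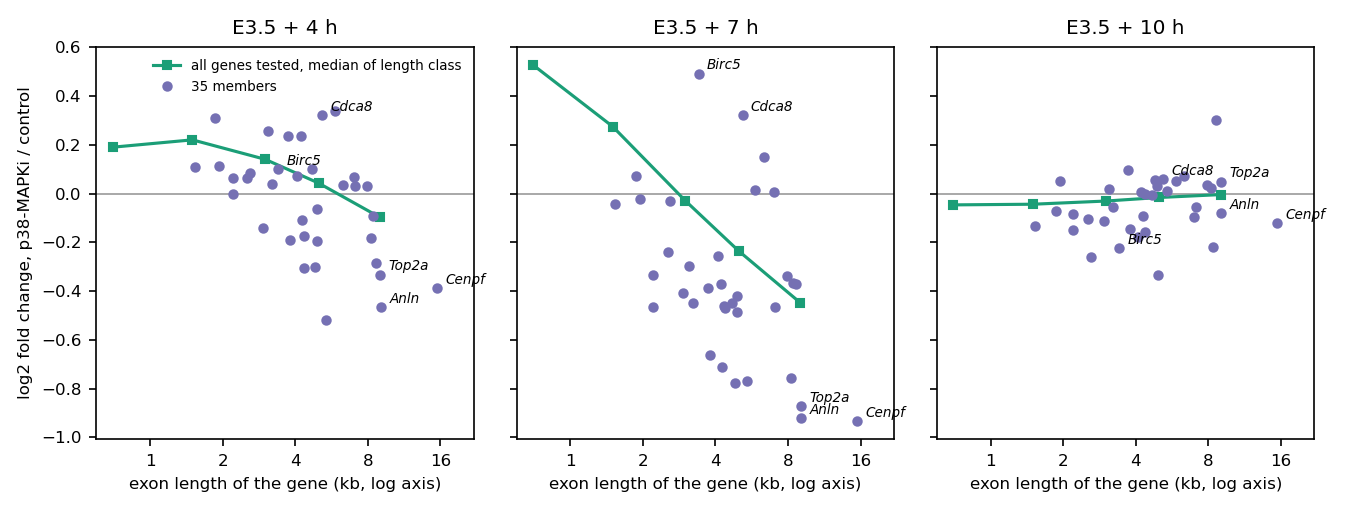
Log2 fold change of p38-MAPKi over control (vertical) against exon length in kb (horizontal, log axis) at the 3 time points, with a violet point per member and green squares for the median of all genes tested in 5 length classes. At 7 h the squares descend from 0.53 under 1 kb to −0.45 over 6 kb and the medians of members of 2 to 6 kb lie below them, while at 10 h the squares are flat.

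In the control pools alone, the question was whether the program changed as the blastocyst matured. From 4 h to 10 h, 31 of 35 members had a positive log2 fold change (75.7% of all genes), and the libraries of 16 lay apart with the later pools higher (45.7% of the members against 42.3% of all genes), with 0 apart in the other direction (8.06%). The median was 0.11 against 0.14 for all genes and became −0.03 after median centering. None was called by limma or voom (0.471% of 10825 genes by limma), and 3, *Top2a*, *Anln*, and *Ube2c*, had an unadjusted p under 0.05, all higher (13.2% of all genes, and 15.2% in either direction). *Top2a* went from 28.7 and 34.3 to 38 and 41.5 RPKM, a log2 fold change of 0.34 ± 0.12 (adjusted p = 0.259, limma), and those of *Anln* and *Ttk* were 0.29 ± 0.12 and 0.29 ± 0.14. The largest negative values were those of *Birc5* (−0.12 ± 0.11), *Aurka* (−0.053 ± 0.10), and *Cdc25b* (−0.033 ± 0.22), each smaller than or close to its standard error.

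The first control pool of 4 h was lower than the second in 32 of 35 members, by a median of 0.20 on the log2 scale (0.18 over all genes). Without replicate 2 of that group, the median change of the members from 4 h to 10 h was 0.209 against 0.225 for all genes. Without replicate 1 it was 0.015 against 0.043. The summed trophectoderm markers also differed between these groups, 1782 and 1945 RPKM at 4 h against 2378 and 2617 at 10 h, as did those of PrE, 238.7 and 269.9 against 293.3 and 282, and their part was not tested. The intermediate steps were smaller still: from 4 h to 7 h the log2 fold changes ran from −0.27 to 0.21 with 4 apart and higher (25.3% of all genes) and 0 apart and lower (3.69%), and from 7 h to 10 h from −0.10 to 0.31 with 7 apart and higher (18.3%) and 2 apart and lower (12.4%). Neither limma nor voom called a member in either step (0.492% of 10776 and 0.0552% of 10873 genes were called by limma), and 0 members had an unadjusted p under 0.05 (4.79% and 3.79% of all genes). These comparisons use the same control libraries as those of p38-MAPKi.

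Other genes of the same machinery were counted from lists of related genes. At 7 h, 1 of 27 other spindle genes was called, *Numa1*, a pole-focusing factor, with −1.12 ± 0.22 (adjusted p = 0.0461, limma), and 1 of 12 other cytokinesis genes, *Myh10*, a non-muscle myosin heavy chain of the contractile ring, with −1.06 ± 0.17 (adjusted p = 0.0456, limma). Over all genes 2.13% were called, and no gene at all was called without the trend, with median centering, with the length trend removed, or without control replicate 2, so both calls are lost there. *Myh10* stood at 42.2 and 41.7 RPKM in the treated pools against 82.1 and 93.1 in the control of that time. Of the other entry, checkpoint, and kinetochore genes (19, 23, and 30 tested) 0 were called at any of the 3 times. All 18 condensin and cohesin genes were below 0 at 7 h (59.9% of all genes) with a median of −0.50, and 0 were called there, but 2 cohesin genes, *Rad21* (−0.40 ± 0.08) and *Stag2* (−0.53 ± 0.12), passed as lower in the effect common to the time points (adjusted p = 0.031 and 0.0409, limma), where 2.67% of all genes were called. Whether these 2 calls stay under alternative settings of the fit was not followed. The medians at 7 h were −0.25 for other entry, −0.24 for other checkpoint and APC/C, −0.20 for other kinetochore, −0.26 for other spindle, −0.23 for other cytokinesis, and −0.15 for 28 DNA replication genes, against −0.14 for all genes tested.

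**Figure D5:**
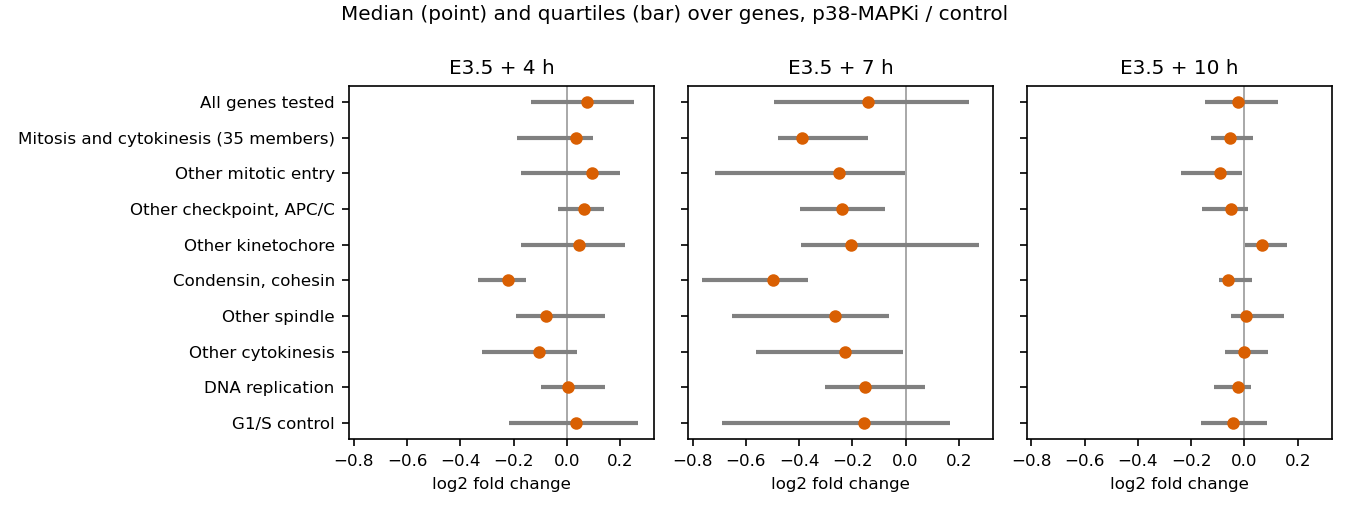
Median (point) and quartiles (bar) over genes of the log2 fold change of p38-MAPKi over control (horizontal) for all genes tested, the 35 members, and 8 related lists (vertical) at the 3 time points. At 7 h the members and the condensin and cohesin list lie lowest, with medians of −0.39 and −0.50, and at 10 h all 10 medians lie between −0.09 and 0.07.

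Genes that mark cycling cells or control G1 differed in direction. *Mki67* stood at 16.8 and 17.2 RPKM in the 4 h control and at 17.5 and 11.1 with p38-MAPKi. The pairs were 15.9 and 23.1 against 9.51 and 11.7 at 7 h and 21.5 and 21.7 against 20.0 and 17.9 at 10 h. *Mki67*, the proliferation marker Ki-67, was lower in both treated pools at 7 h (−0.86 ± 0.23, adjusted p = 0.065, limma), overlapped at 4 h, and was lower again in both at 10 h (−0.19 ± 0.08, adjusted p = 0.266, limma). The length trend of 7 h, with a median of −0.45 for all genes over 6 kb, was not removed from the *Mki67* value. *Foxm1* was measured at 7.49 and 8.96 RPKM in the 4 h control and at 10.8 and 7.69 with p38-MAPKi. The pairs were 9.57 and 12.5 against 5.94 and 7.27 at 7 h and 10.6 and 11.5 against 13.9 and 13.3 at 10 h. *Foxm1*, a transcription factor of the G2 program, was lower in both treated pools at 7 h (−0.74 ± 0.23, adjusted p = 0.083, limma) and higher in both at 10 h (0.30 ± 0.09, adjusted p = 0.139, limma). *Cdkn1a* was found at 62.6 and 70.4 RPKM in the 4 h control and at 93.9 and 98.9 with p38-MAPKi. The pairs were 88.5 and 83.7 against 118 and 106 at 7 h and 82.6 and 74 against 83.7 and 89 at 10 h. *Cdkn1a*, the gene of the Cdk inhibitor p21, was higher in both treated pools at every time, and the common effect of 0.35 ± 0.08 was called (adjusted p = 0.0417, limma). Calls over all genes in this effect ran from 9 without a filter to 685 with quantile normalization (310 as reported). Whether *Cdkn1a* stayed among them was not followed. Among 22 genes of G1 and S control tested at 4 h, 1 was called, the inhibitor gene *Cdkn2b*, with 3.54 and 3.19 RPKM after p38-MAPKi against 1.39 and 1.22 (1.37 ± 0.36, adjusted p = 0.0193, limma; 0.909% of all genes were called). These control values of *Cdkn2b* rest on 33 and 31 reads. Its groups overlapped at 7 h (2.36 and 3.87 RPKM with p38-MAPKi against 2.99 and 1.72) and at 10 h (2.18 and 1.97 against 2.41 and 1.91). The call of *Cdkn2b* is lost with median centering, quantile normalization, no filter, the length trend removed, or a single fit of all libraries, where no gene at all was called. *Ccne1*, the G1 cyclin gene, ranged from 17.9 to 31.6 RPKM over the 12 libraries, and its log2 fold changes of 0.35 (4 h), −0.12 (7 h), and −0.20 (10 h) were not called. *Ccnd1* stayed between 0.255 and 2.11 RPKM and was not tested. In the control pools, the inhibitor gene *Cdkn1c* was called as higher at 7 h and 10 h than at 4 h, by 1.02 ± 0.22 and 1.03 ± 0.17 (adjusted p = 0.00258 and 0.0252, limma). Its control values were 3.44 and 3.54 RPKM at 4 h, 9.87 and 5.10 at 7 h, and 7.99 and 6.34 at 10 h. The standard error of 0.22 comes from the variance trend and does not measure the distance between the 2 pools of 7 h. With median centering, quantile normalization, no filter, the replicate block, or the length trend removed, no gene was called from 4 h to 7 h, and in a single fit of all libraries none was called in either comparison, so the call of *Cdkn1c* is lost there.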

How the data were processed

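Poly(A) RNA of 12 pools of 30 blastocysts was sequenced by the authors from directional libraries, trimmed with Trim Galore 0.4.1, and mapped to GRCm38 with HISAT2 2.0.5; the authors quantified genes in SeqMonk, tested them there with DESeq2, and deposited log2 RPKM, in which a gene with 0 reads holds the value that 0.9 of a read would give. The strand option and the treatment of multimapping reads are not given in the sources used here. Per the methods of the study no spiked-in control was used, and every value is relative to the total of its library. From these values and GENCODE M21 exon lengths (31 members) or a search over lengths (4 members), whole reads were recovered within a tolerance of 0.02, and they served for depth and for voom, an alternative added after the data were seen.

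Comparisons were made with limma 3.58.1 (lmFit, eBayes with the variance trend) in R 4.3.3 on the deposited log2 values of the groups compared, over genes that reached 1 RPKM in 2 libraries or more, with Benjamini-Hochberg adjustment over all genes tested and a threshold of 0.05. At 4 h and in the control comparison of 4 h with 7 h, limma gave each gene the variance of the trend. The fits were tested on simulated data. Per-library values were printed for members called, for the 3 highest and 3 lowest log2 fold changes in each p38-MAPKi comparison and in the control from 4 h to 10 h, and for the highest and lowest control level of each role; other lists give up to 3 called genes, and *Cdkn1a*, *Ccnd1*, *Ccne1*, *Mki67*, and *Foxm1* were named whatever their values. Members and lists were chosen with earlier results of these data known. Sequences came from RefSeq (GRCm38.p6). Alternatives were limma without the trend, median centering, quantile normalization, no filter, at least 10 RPKM, log2(RPKM + 1) and log2(RPKM + 5), a single fit of all 12 libraries, a replicate block, removal of a loess length trend (span 0.5), an adjusted p under 0.1, leaving out each library, voom, and the common effect without the libraries of 7 h, the last 2 added after the data were seen.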

Additional observations from a re-analysis of the deposited data

How the results depend on the processing

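The count of members called at 7 h was 1 as reported and moved with almost every choice: 0 without the trend, with median centering, with quantile normalization, and with the length trend removed, 2 without a filter and with log2(RPKM + 1), 3 with log2(RPKM + 5), 7 with at least 10 RPKM, 8 at an adjusted p under 0.1 and by voom, 13 in 1 fit over 12 libraries, and 0 to 13 when a library was left out. At 4 h the count of 0 became 1 when p38-MAPKi replicate 1 was left out (range 0 to 1). At 10 h the count of 0 became 2 at an adjusted p under 0.1 and by voom. From 4 h to 10 h in the control, leaving out a library gave 0 to 6. For the difference between 10 h and 7 h the count of 0 became 6 at an adjusted p under 0.1 and by voom, 4 with at least 10 RPKM, and 0 to 14 when a library was left out. For the common effect the count of 0 became 4 at an adjusted p under 0.1, 1 with quantile normalization, at least 10 RPKM, the length trend removed, or voom, and 0 to 1 when a library was left out. The cause was not tested. At 7 h, calls over all genes were 1728 of 10927 by voom, 2586 of 10940 in 1 fit over 12 libraries, and 947 of 5081 with at least 10 RPKM. Voom called 522 of 10946 genes at 10 h and 890 of 11387 for the difference between 10 h and 7 h. Calls over all genes at an adjusted p under 0.05 ran from 0 to 424 at 4 h (98 as reported), 0 to 2919 at 7 h (233), 0 to 522 at 10 h (88), 0 to 58 (53), 0 to 221 (6), and 0 to 1228 (51) in the control from 4 h to 7 h, 7 h to 10 h, and 4 h to 10 h, 0 to 293 (1) and 0 to 2905 (1) for the differences of effect, and 9 to 685 (310) for the common effect. Library pairs with the same replicate number deviated together weakly, with correlations of −0.015, 0.089, and 0.139 for the p38-MAPKi comparisons. Whether a shared number marks a shared collection is not stated in the sources, and these correlations cannot settle it. The replicate block gave 9 members at 7 h and 6 together with the length correction, 0 and 1 at 10 h, 4 and 1 for the difference between 10 h and 7 h, and 0 in each other comparison. Of 378 alternatives for 24 changes of named members, 345 kept the direction and the side of the threshold, 21 passed it, 7 (all *Anln* at 7 h) no longer did, and 5 changed sign when a library was left out, none of them called. *Nuf2* at 7 h ran from −0.070 without p38-MAPKi replicate 1 to 0.37 without replicate 2, and *Cdc25b* at 10 h from −0.092 to 0.28 likewise. In the control from 4 h to 10 h, *Aurka* ran from −0.14 without replicate 1 of 4 h to 0.033 without replicate 2, and *Cdc25b* from −0.34 to 0.27 likewise, with 0.048 without replicate 1 of 10 h. The median of the members less that of all genes at 7 h was −0.25 as reported, and ran from −1.05 without a filter, where the low genes of the table enter, over −0.35 with at least 10 RPKM and −0.25 with the length trend removed, to −0.17 without p38-MAPKi replicate 1; centering cannot change it. Where a library was left out, the lone library of its group was assumed to vary like the other groups. With 2 libraries a group, the standard errors limit which differences of single members could be called.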
